A study of Homo sapiens with 84 samples.

Results

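The antigen presentation genes described here were 9 of the 58395 genes in the count files of Kyse30 and FaDu carcinoma cells. They were the class I heavy chains HLA-B, HLA-C and HLA-E, the class I-like gene HFE, the shared light chain B2M, the peptide transporter subunit TAP1, tapasin (TAPBP), and the immunoproteasome subunits PSMB8 and PSMB9. Their rule used gene symbols, joined to the Ensembl identifiers of the files through GENCODE release 29, and no measured value, but it was set with earlier results of these data known. All 9 were found, and all 9 passed the filter on low counts in every comparison tested.

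Class I molecules carry short peptides from the inside of a cell to its surface, where cytotoxic T cells and natural killer cells read them. Proteins are cut by the proteasome, in which the immunoproteasome subunits can take the place of constitutive ones, and the peptides are pumped into the endoplasmic reticulum by the TAP transporter. There tapasin holds an empty heavy chain and β2-microglobulin next to TAP until a peptide fits. Carcinoma cells often lower several of these genes together, and interferons raise them.

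The study asked how EGF and EpEX, the extracellular domain of EpCAM, act on the transcriptome of squamous carcinoma cells through the EGF receptor. Kyse30 is a line from an esophageal squamous cell carcinoma, FaDu one from a carcinoma of the hypopharynx, and each is 1 line. All cells, controls included, were starved of serum before treatment and kept without serum during it. Kyse30 (43 libraries) and FaDu (20 libraries with the replicate numbers 3 and 4) were analysed from 84 libraries in all.

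Untreated cells were collected at 0, 6 and 72 h. Treated cells were collected at 6 and 72 h after addition of EGFlow (1.8 nM EGF), EGFhigh (9 nM EGF), EpEX fused to an immunoglobulin Fc part, EGFhigh together with EpEX, or Fc alone. Untreated cells served as control for EGF, and Fc as control for EpEX and for EGFhigh+EpEX. Each of the 13 Kyse30 conditions had 3 or 4 libraries. FaDu replicates 3 and 4 gave 1 or 2 libraries per condition, and conditions with 1 library were not tested. No label states whether libraries of a condition came from separate cultures, so p-values measure the spread between these libraries, which may be technical.

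Reads were counted per gene from the 3′ ends of transcripts. Gene counts per library ranged from 1944948 to 11759799 in Kyse30 and from 6217938 to 12442349 in FaDu, and 3 counts, taken here as the floor of detection, stood for 0.255 to 1.54 CPM (counts scaled to the depth of each library, on 1 common TMM scale for both lines) in Kyse30 and 0.241 to 0.482 CPM in FaDu. These floors cover counting error only. As a check of the labels, the summed level of 9 epithelial markers was 2762 to 17073 CPM in Kyse30 and 2047 to 4328 CPM in FaDu. The sum of 6 leukocyte markers was 0 to 11.5 and 0 to 5.11 CPM, that of 3 endothelial markers 0 to 7.41 and 0.406 to 9.60 CPM, and that of 6 fibroblast markers 10.1 to 44.5 and 7.14 to 15.7 CPM. Summed class II genes, which professional antigen presenting cells express, reached 14.4 CPM in Kyse30 and 10.4 CPM in FaDu. The 9 epithelial markers differed widely in level. In Kyse30 their medians were 2698 CPM for KRT18, 1649 for KRT8, 779 for SFN, 212 for EPCAM and 187 for CDH1. They were 29.7 CPM for KRT6A, 18.6 for TP63, 2.08 for KRT5 and 0.712 for KRT14.

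Of the 9 genes, 8 lie in or near the major histocompatibility complex on chromosome 6 and B2M lies on chromosome 15. In GRCh38 coordinates of GENCODE 29, HFE spans chr6:26087281-26098343, HLA-E chr6:30489467-30494205, HLA-C chr6:31268749-31272130, HLA-B chr6:31269491-31357188, PSMB8 chr6:32840717-32844703, PSMB9 chr6:32844136-32859585, TAP1 chr6:32845209-32853978, and TAPBP chr6:33299694-33314387. B2M spans chr15:44711487-44718877. The annotated span of HLA-B runs through that of HLA-C on the same strand, although their exons share 35 bases only (1.15% of those of HLA-B). PSMB8 and PSMB9 share 139 exon bases on opposite strands, and PSMB8 and TAP1 share 618 and 456 with the antisense gene PSMB8-AS1. The strand setting of the counting is not stated, so reads in these stretches cannot be assigned with certainty, and a read can match both of the similar genes HLA-B and HLA-C.

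The promoters of 5 members are shown because HLA-B, HLA-C, B2M and TAPBP rose over time in Kyse30 while TAP1 was not called. Each line gives the 200 bases before the RefSeq transcription start in GRCh38.p14, 5′ to 3′ on the strand of the gene. Capitals mark the letters GAAANNGAAA (the core of an interferon-stimulated response element, ISRE), GGGNNNNNCC (a loose NF-κB pattern), and CCAAT, each on either strand. HLA-B is shown at chr6:31357180-31357379 (minus strand), HLA-C at chr6:31272093-31272292 (minus strand), B2M at chr15:44711317-44711516 (plus strand), TAP1 at chr6:32853705-32853904 (minus strand), and TAPBP at chr6:33314079-33314278 (minus strand).
HLA-B: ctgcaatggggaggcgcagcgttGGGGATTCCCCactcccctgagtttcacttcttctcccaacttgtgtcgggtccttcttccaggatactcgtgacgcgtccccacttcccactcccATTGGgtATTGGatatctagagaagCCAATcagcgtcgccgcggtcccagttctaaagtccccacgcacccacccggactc
HLA-C: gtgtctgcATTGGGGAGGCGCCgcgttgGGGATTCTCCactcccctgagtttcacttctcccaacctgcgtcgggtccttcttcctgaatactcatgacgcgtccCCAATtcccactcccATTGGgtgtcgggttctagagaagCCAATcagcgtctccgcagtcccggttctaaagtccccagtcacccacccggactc
B2M: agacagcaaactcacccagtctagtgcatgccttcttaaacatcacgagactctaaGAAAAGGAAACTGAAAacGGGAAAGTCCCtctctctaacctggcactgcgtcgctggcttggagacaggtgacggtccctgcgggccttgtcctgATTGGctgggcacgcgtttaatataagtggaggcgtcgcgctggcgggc
TAP1: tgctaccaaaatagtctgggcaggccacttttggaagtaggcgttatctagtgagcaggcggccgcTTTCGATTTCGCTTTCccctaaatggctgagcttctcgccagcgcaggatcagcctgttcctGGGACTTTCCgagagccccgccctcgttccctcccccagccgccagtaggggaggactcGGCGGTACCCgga
TAPBP: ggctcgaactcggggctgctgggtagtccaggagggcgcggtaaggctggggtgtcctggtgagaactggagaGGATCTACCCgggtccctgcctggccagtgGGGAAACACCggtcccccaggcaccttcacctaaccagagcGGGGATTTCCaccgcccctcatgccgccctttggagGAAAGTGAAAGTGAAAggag

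The RefSeq table held 10 promoter windows for 8 of the 9 members, each 300 bases long, and none for HLA-E. The ISRE core was found in the windows of B2M, TAP1 and TAPBP, 2 overlapping matches in each, and once in the second window of PSMB8. It was not found in the windows of HLA-B, HLA-C, HFE and PSMB9. Only these exact letters were searched, so an element with other letters could have been missed. Of 35116 promoter windows of the same length in the whole table, 3.57% held the ISRE core, 58.7% the NF-κB pattern, and 34.6% a CCAAT box. The windows of HLA-B and HLA-C were identical at 269 of 304 aligned positions (88.5%), each with an NF-κB pattern and with CCAAT letters on both strands. These matches describe letters only, and the binding of a factor was not measured.

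Over time in Kyse30, HLA-B, HLA-E, B2M and TAPBP rose from 6 to 72 h under all 6 treatments, controls included, and HLA-C under 5 of 6. HFE rose under 2 of 6, and TAP1, PSMB8 and PSMB9 under none in the edgeR test. Several of these calls, most often those in untreated and Fc-treated cells, were lost when 1 library was left out. Median levels over the 21 libraries of 6 h and the 19 libraries of 72 h were 104 and 399 CPM for HLA-B, 82.9 and 213 CPM for HLA-C, 153 and 291 CPM for HLA-E, 274 and 729 CPM for B2M, and 113 and 189 CPM for TAPBP. A gene was called where edgeR's quasi-likelihood test gave a Benjamini-Hochberg adjusted p of at most 0.05 over all genes tested and an absolute log2FC over 0.5. Fold changes are given as log2FC ± SE. Cells at 72 h had been longer in culture and longer without serum than cells at 6 h, and the effects of time and of serum withdrawal cannot be told apart. In bulk RNA, more cells expressing a gene and more of its RNA per cell cannot be told apart either.

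The counts of members called higher at 72 h were 5 of 9 in untreated cells, where 0.775% of the 15350 genes tested were called higher, and 4 of 9 in Fc-treated cells, against 1.24%. With 1 library left out at a time, untreated cells had 0 to 3 called members and Fc-treated cells 1 to 4. In the main fit the counts were 5 of 9 with EGFhigh (6.08% of all genes), 6 of 9 with EGFlow (7.43%), 5 of 9 with EpEX (2.84%), and 6 of 9 with EGFhigh+EpEX (6.12%). No member was called lower at 72 h in any of these 6 comparisons. The last 3 were added after the data had been seen. The median log2FC of the 9 members was 1.21 in untreated, 1.02 in Fc-treated and 1.16 in EGFhigh-treated cells, and the median of all genes tested lay at 0.02, 0.03 and 0.03. The 6 comparisons share no library with each other.

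**Figure D1:**
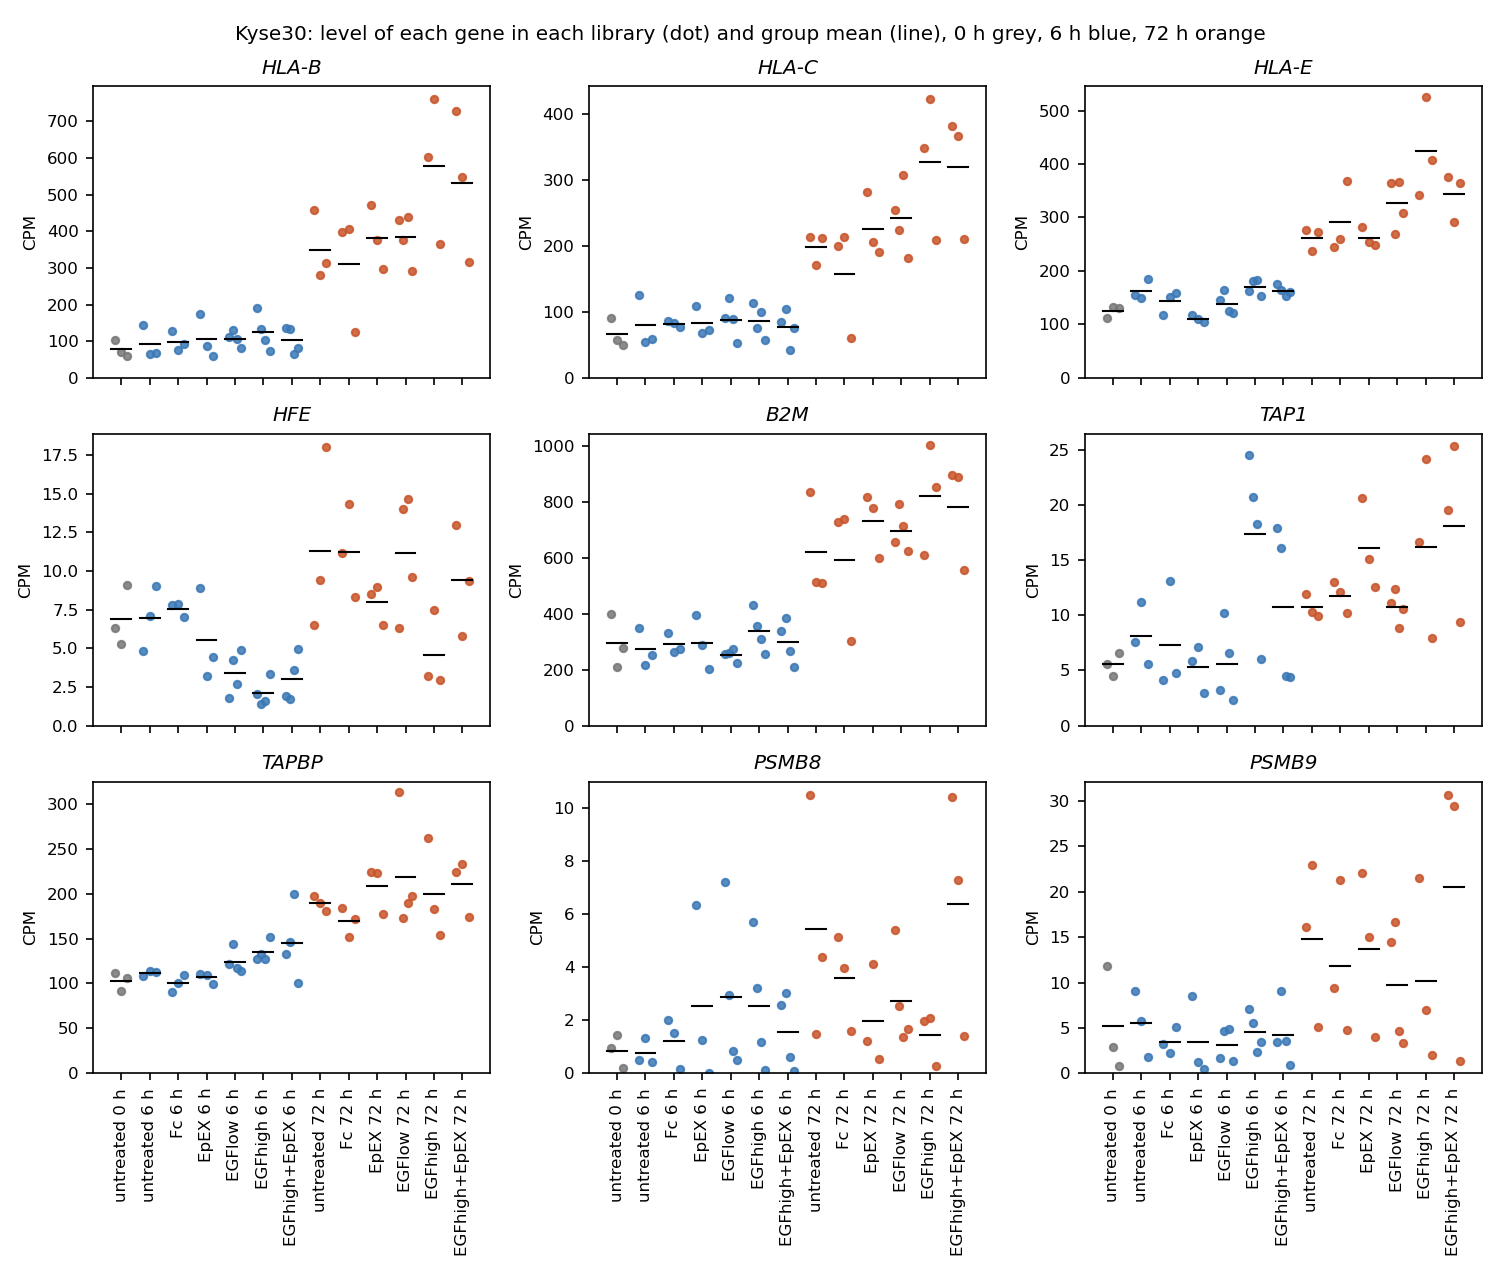
Level of each of the 9 genes in the 43 Kyse30 libraries, in CPM from 0 on the vertical axis, by treatment and time on the horizontal axis, with 1 dot per library and a line at the mean of each condition. At 72 h (orange) HLA-E lay between 237 and 525 CPM and at 6 h (blue) between 104 and 184 CPM, whereas PSMB9 at 72 h spread from 1.41 to 30.7 CPM.

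HLA-B encodes a classical heavy chain that presents peptides to T cells. At 6 h its levels were 144, 66.2 and 68.9 CPM in the untreated libraries (replicates 1, 3 and 4) and 126, 75.1 and 91.3 CPM with Fc. At 72 h they were 458, 280 and 313 CPM in untreated libraries (replicates 1, 2 and 3) and 399, 405 and 125 CPM with Fc. Untreated groups did not overlap, while Fc replicate 3 at 72 h lay within the range of the 6 h libraries.

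The log2FC of HLA-B from 6 to 72 h was 1.93 ± 0.39 in untreated cells (adjusted p = 0.00479, n = 3 and 3) and 1.67 ± 0.39 with Fc (adjusted p = 0.0149, n = 3 and 3). With EGFhigh, where libraries of 6 h held 191, 133, 104 and 73.6 CPM and those of 72 h 603, 761 and 367 CPM, it was 2.21 ± 0.36 (adjusted p = 3.8e-05). With EGFhigh+EpEX it was 2.40 ± 0.36, with EGFlow 1.86 ± 0.34, and with EpEX 1.83 ± 0.39. In these 4 treatments every 72 h library exceeded every 6 h library of the same treatment.

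Among the 13 condition means of HLA-B, EGFhigh at 72 h was first (577 CPM), followed by EGFhigh+EpEX (531), EGFlow (384), EpEX (382), untreated (350) and Fc (310), all at 72 h. The neighbours EGFhigh and EGFhigh+EpEX differed by less than their spread (log2FC -0.09 ± 0.38), as did untreated and Fc cells (-0.17 ± 0.38). The 6 conditions of 6 h had means from 93.2 to 126 CPM.

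HLA-C, the second classical heavy chain and a ligand of killer cell receptors, rose under every treatment but Fc. Untreated libraries held 126, 54.7 and 59.1 CPM at 6 h and 213, 171 and 211 CPM at 72 h without overlap (log2FC 1.34 ± 0.36, adjusted p = 0.0417). With Fc they held 85.7, 82.9 and 76.7 CPM at 6 h and 200, 213 and 60.3 CPM at 72 h, so that 1 library at 72 h lay below all of 6 h (log2FC 0.96 ± 0.36, adjusted p = 0.153, not called). With EGFhigh the rise was 1.92 ± 0.33 and with EGFhigh+EpEX 2.09 ± 0.33.

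HLA-E is a nonclassical heavy chain that shows peptides from the leaders of other class I proteins to NKG2A receptors of natural killer cells. It was the member with the cleanest separation in time. All 19 libraries of 72 h (237 to 525 CPM) exceeded all 21 of 6 h (104 to 184 CPM). Untreated libraries held 154, 150 and 184 CPM at 6 h and 277, 237 and 272 CPM at 72 h (log2FC 0.71 ± 0.18, adjusted p = 0.0289), and EGFhigh libraries 162, 180, 183 and 153 CPM at 6 h and 341, 525 and 407 CPM at 72 h (log2FC 1.33 ± 0.17, adjusted p = 4.52e-07). The other 4 treatments gave log2FC values from 1.02 to 1.25.

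B2M encodes the light chain that class I heavy chains and HFE need to fold and leave the endoplasmic reticulum. Its untreated libraries held 348, 217 and 252 CPM at 6 h and 835, 514 and 512 CPM at 72 h, without overlap (log2FC 1.21 ± 0.28, adjusted p = 0.0156). With Fc the 6 h libraries held 333, 264 and 274 CPM and the 72 h libraries 729, 741 and 305 CPM (log2FC 1.03 ± 0.28, adjusted p = 0.0394). Replicate 3 of Fc at 72 h again lay within the range of 6 h. The other 4 treatments gave log2FC values from 1.29 to 1.48 with no overlap.

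TAPBP, which edits the peptides that class I molecules accept, changed over a narrower range. Untreated libraries held 108, 113 and 113 CPM at 6 h and 197, 190 and 181 CPM at 72 h (log2FC 0.79 ± 0.20, adjusted p = 0.028). Over the 6 treatments its log2FC ran from 0.56 with EGFhigh to 0.95 with EpEX. Only 6 of the 19 libraries of 72 h exceeded the highest of 6 h, an EGFhigh+EpEX library of 200 CPM.

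TAP1, which forms the peptide pump with TAP2, was not called by edgeR over time under any treatment. Untreated libraries held 7.56, 11.2 and 5.63 CPM at 6 h and 11.9, 10.3 and 9.92 CPM at 72 h, which overlapped (log2FC 0.42 ± 0.52, adjusted p = 0.805). With EpEX they held 5.90, 7.08 and 2.96 CPM at 6 h and 20.6, 15.1 and 12.6 CPM at 72 h (log2FC 1.53 ± 0.55, adjusted p = 0.0868), where DESeq2 called it (1.57, adjusted p = 0.0461). With EGFhigh the difference was near zero (-0.09 ± 0.48), and 3 of the 4 libraries of 6 h held 18.3 to 24.5 CPM.

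PSMB8 and PSMB9 encode the catalytic subunits that replace PSMB5 and PSMB6 in the immunoproteasome. PSMB8 was near the floor in Kyse30, with counts from 0 to 112 per library and levels up to 7.18 CPM at 6 h and 10.5 CPM at 72 h. Its log2FC over time ran from -0.77 with EGFhigh to 2.82 ± 1.17 in untreated cells (adjusted p = 0.257), where libraries of 6 h held 0.516, 1.32 and 0.422 CPM and those of 72 h 10.5, 1.47 and 4.36 CPM. For PSMB9 all 6 log2FC values were positive, from 1.16 to 2.36, and none was called by edgeR. The closest was EGFhigh+EpEX, with 3.40, 9.02, 3.57 and 0.913 CPM at 6 h and 30.7, 29.5 and 1.41 CPM at 72 h (2.36 ± 0.84, adjusted p = 0.0527), and it was called with no filter on low counts, a minimum mean of 5 CPM or a replicate block.

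The spread of PSMB9 at 72 h followed the replicate number. Libraries numbered 1 held 9.45 to 30.7 CPM (6 libraries) and those numbered 2 held 15 to 29.5 CPM (5 libraries), whereas those numbered 3 held 1.41 to 6.95 CPM (5 libraries) and those numbered 4 held 1.99 to 3.96 CPM (3 libraries). PSMB8 at 6 h showed medians of 4.15, 3.01, 1.20 and 0.132 CPM in libraries numbered 1 to 4. HLA-B at 6 h held 111 to 191 CPM in libraries numbered 1 and 129 to 133 CPM in those numbered 2, above the 66.0 to 105 CPM of those numbered 3 and the 58.3 to 91.3 CPM of those numbered 4. What the numbers stand for is not stated, and their part in the levels was not tested. Over the 16 pairs of a 6 h and a 72 h library of the same treatment and number, the 72 h library was higher in 16 pairs for HLA-B, HLA-E and B2M, in 15 for HLA-C and TAPBP, in 14 for HFE, in 13 for TAP1, and in 12 for PSMB8 and PSMB9. These pairs share 4 numbers and are not 16 independent observations, and the tests did not use them as pairs. The same counts over all genes were not computed.

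HFE pairs with B2M as the heavy chains do, but presents no peptide and takes part in the sensing of iron through the transferrin receptor. With EGFlow its libraries held 1.79, 4.22, 2.69 and 4.86 CPM at 6 h and 6.30, 14.0, 14.7 and 9.62 CPM at 72 h, a rise of 1.73 ± 0.44 (adjusted p = 0.00522) without overlap. With EGFhigh+EpEX they held 1.90, 1.72, 3.57 and 4.97 CPM at 6 h and 13, 5.81 and 9.37 CPM at 72 h (1.64 ± 0.46, adjusted p = 0.0122). In untreated cells 4.81, 7.06 and 9.00 CPM at 6 h overlapped with 6.53, 9.39 and 18.0 CPM at 72 h (0.72 ± 0.48, adjusted p = 0.561).

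Gene counts in Kyse30 were 1944948 to 10438330 (median 6304338) at 6 h and 3262475 to 10478501 (median 6400031) at 72 h, and reads without a unique place made up 29.2 to 43.6% and 24.6 to 38.8%. Reads outside annotated genes made up 5.30 to 8.28% (median 6.81) at 6 h and 6.02 to 15.3% (median 7.89) at 72 h. Summed epithelial markers had a median of 8356 CPM at 6 h and 4378 CPM at 72 h (range 4970 to 11555 and 2762 to 17073), summed leukocyte markers 0.811 and 1.26 CPM (highest 4.03 and 11.5), summed endothelial markers 2.18 and 2.43 CPM, summed fibroblast markers 20 and 20.4 CPM, and summed class II genes 3.72 and 5.68 CPM. The part of the epithelial markers and of reads outside genes in the change of the 9 genes was not tested. Replicate 3 of Fc at 72 h, the 1 library of 72 h at or below the highest 6 h level in HLA-B, HLA-C and B2M, had the fewest gene counts of that time (3262475) and at 369 CPM the highest HLA-E level of its group.

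**Figure D2:**
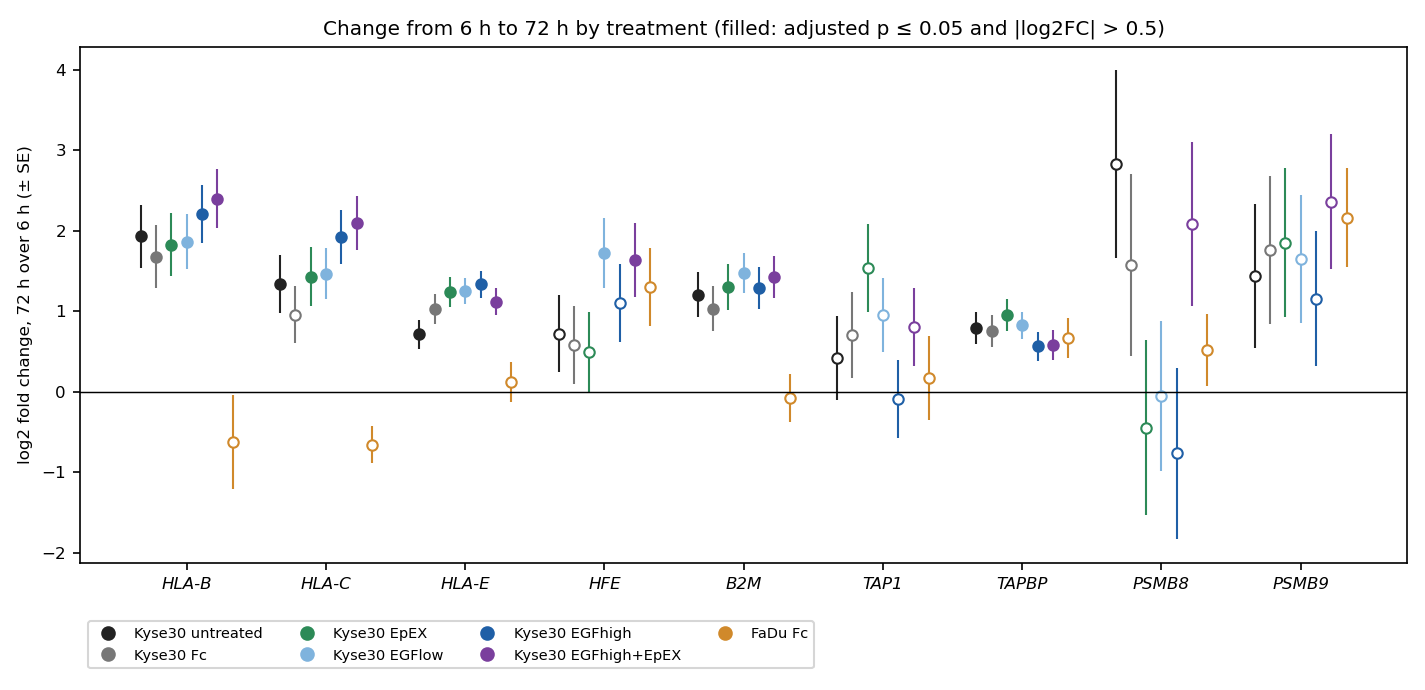
Change of each gene from 6 h to 72 h as log2FC ± SE on the vertical axis, with 1 point per treatment in Kyse30 and 1 for Fc-treated FaDu cells, filled where called. HLA-B points of Kyse30 lay between 1.67 and 2.40 and the FaDu point at -0.63.

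Calls over time were refitted without each library of the compared groups in turn. With EGFhigh, EGFlow and EGFhigh+EpEX, the rises of HLA-B, HLA-C, HLA-E and B2M were called in every such fit. In untreated cells HLA-B lost its call without 6 h replicate 3 (1.73, adjusted p = 0.0691), B2M without that library (1.06, adjusted p = 0.149), 6 h replicate 4 (1.14, adjusted p = 0.0702) or 72 h replicate 1 (0.94, adjusted p = 0.15), and HLA-C and HLA-E in 5 of 6 fits, with log2FC values from 1.12 to 1.41 and from 0.65 to 0.76 in those 5. HLA-C then stayed called only without 6 h replicate 1, and HLA-E only without 6 h replicate 4. With Fc, HLA-E stayed called in 6 of 6 fits, HLA-B in 2 (without 6 h replicate 1 or without 72 h replicate 3), and B2M in 1 (without 72 h replicate 3). TAPBP kept its calls in 18 of 40 fits, with those in untreated and Fc-treated cells lost in 6 of 6 fits each (log2FC 0.68 to 0.81) and those with EGFhigh and EGFhigh+EpEX lost in 5 of 7 each (log2FC 0.35 to 0.59 and 0.39 to 0.54). With EpEX, HLA-C lost its call without 6 h replicate 3 (1.31, adjusted p = 0.0774), 6 h replicate 4 (1.36, adjusted p = 0.0528) or 72 h replicate 1 (1.24, adjusted p = 0.0757). HFE with EGFhigh+EpEX lost its call without 72 h replicate 1 (1.32, adjusted p = 0.106), 6 h replicate 1 (1.43, adjusted p = 0.056) or 6 h replicate 2 (1.42, adjusted p = 0.0524).

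From 0 to 6 h in untreated Kyse30 cells no member was called by edgeR or DESeq2, and 0% of all genes were. At an unadjusted p under 0.05 the members' count was 0, against 2.31% of all genes. The 0 h libraries held 104, 69.6 and 59.0 CPM of HLA-B and 111, 133 and 131 CPM of HLA-E, and those of HLA-E lay below the 3 libraries of 6 h (log2FC 0.36 ± 0.18, adjusted p = 1).

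Responses to EGF and EpEX at a given time were few beside the change over time. With EGFhigh at 6 h, HFE fell by 1.73 ± 0.48 on the log2 scale against untreated cells (adjusted p = 0.0382), and at 72 h HLA-E rose by 0.67 ± 0.18 (adjusted p = 0.0176). No other member was called by edgeR in any of the 14 comparisons between treatments of the same time in Kyse30.

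HFE at 6 h held 2.02, 1.42, 1.56 and 3.32 CPM with EGFhigh and 4.81, 7.06 and 9.00 CPM in untreated libraries, without overlap. These levels rest on 6, 8, 8 and 28 counts with EGFhigh. It was the 1 member called lower, against 1.21% of all genes. The call was lost without any 1 of 6 of the 7 libraries, with log2FC values from -2.08 to -1.51 over the 7 fits and adjusted p values up to 0.197, and stayed without EGFhigh replicate 4. EGFlow libraries held 1.79, 4.22, 2.69 and 4.86 CPM (-1.05 ± 0.46, adjusted p = 0.282), overlapping with untreated cells at 4.86 and 4.81 CPM. EGFhigh+EpEX libraries held 1.90, 1.72, 3.57 and 4.97 CPM, below the Fc libraries at 7.82, 7.86 and 7 CPM (-1.32 ± 0.46, adjusted p = 0.0881). At 72 h the value with EGFhigh was -1.35 ± 0.49 (adjusted p = 0.1).

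HLA-E at 72 h held 341, 525 and 407 CPM with EGFhigh, above the untreated libraries of 277, 237 and 272 CPM. It was the 1 member called higher, against 3.04% of all genes. Without EGFhigh replicate 3 the log2FC was 0.47 (adjusted p = 0.178), and without untreated replicate 2 it was 0.62 (adjusted p = 0.0963). HLA-B and HLA-C had values of similar size that were not called, 0.69 ± 0.38 (adjusted p = 0.322) and 0.68 ± 0.35 (adjusted p = 0.286), with wider spread between libraries. The response of HLA-E to EGFhigh was larger at 72 h than at 6 h by 0.62 ± 0.25 on the log2 scale (adjusted p = 0.23), which was not called. In that test of the difference between responses no member was called, against 1.01% of all genes, and 2 had an unadjusted p under 0.05, against 13.7%.

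TAP1 at 6 h held 24.5, 20.8, 18.3 and 6.05 CPM with EGFhigh and 7.56, 11.2 and 5.63 CPM in untreated cells, and the groups overlapped in replicate 4 (1.07 ± 0.50, adjusted p = 0.29). Against EGFlow, whose libraries held 3.20, 10.2, 6.55 and 2.35 CPM, the difference was 1.62 ± 0.47 (adjusted p = 1).

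The remaining comparisons held no member called by edgeR. Of all genes, 1.5% were called with EGFlow at 6 h and 0% at 72 h, 0.0261% with EpEX against Fc at 6 h and 0% at 72 h, and 4.52% with EGFhigh+EpEX against Fc at 6 h and 0% at 72 h. EGFhigh against EGFlow gave 0% at 6 h and 3.73% at 72 h, EGFhigh+EpEX against EGFhigh 0% and 3.58%, and Fc against untreated cells 0% and 0%. At an unadjusted p under 0.05 stood 1 member with EGFlow at 6 h (13.7% of all genes) and 0 at 72 h (2.86%). For EpEX these were 1 (9.45%) and 0 (3.61%), and for EGFhigh+EpEX against Fc 2 (19.2%) and 2 (3.92%). EGFhigh against EGFlow gave 1 (2.83%) and 2 (15.5%), EGFhigh+EpEX against EGFhigh 0 (3.76%) and 1 (16.2%), and Fc against untreated cells 0 (2.83%) and 0 (2.86%). DESeq2 called 1 member, HFE, for EGFhigh+EpEX at 6 h and none in the others. These comparisons share control libraries, so the values above are given side by side.

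**Figure D3:**
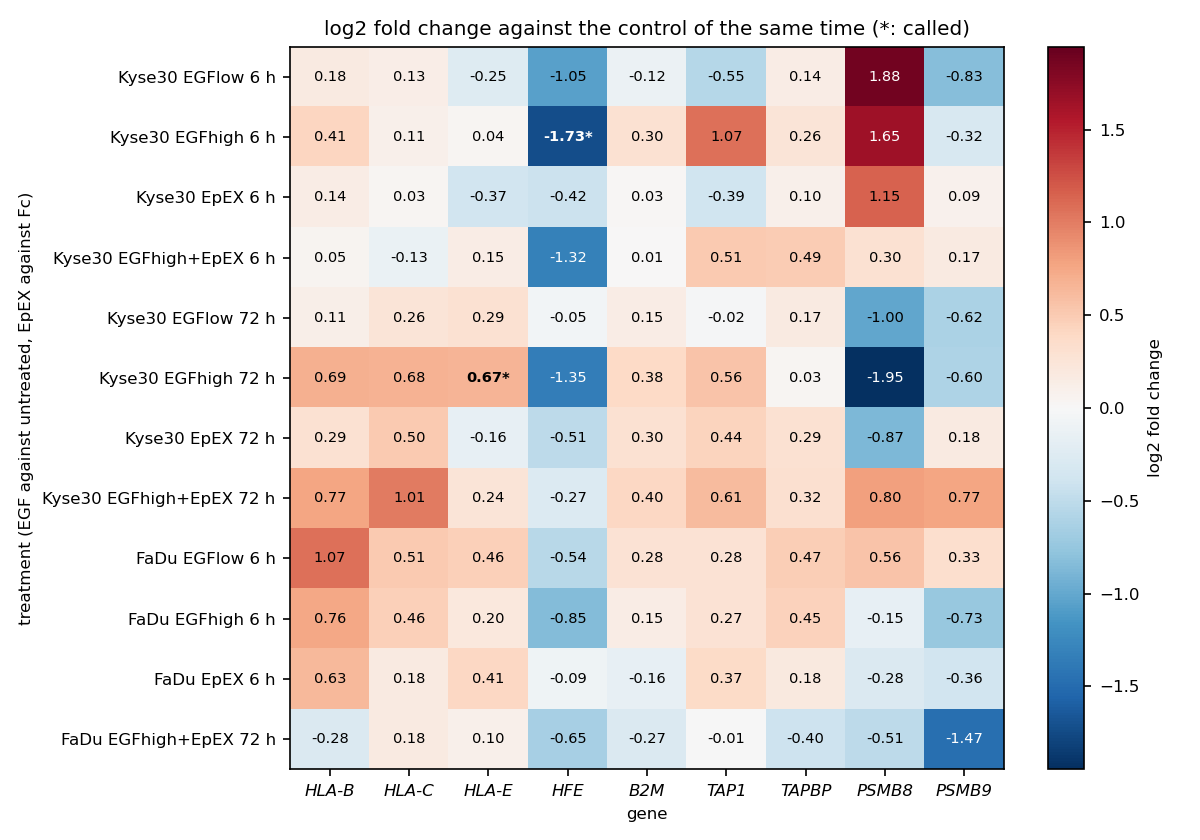
log2FC of each gene (columns) with each treatment against its control of the same time (rows), in Kyse30 and in FaDu replicates 3 and 4, with called values in bold and starred. Starred cells are HFE with EGFhigh at 6 h (-1.73) and HLA-E with EGFhigh at 72 h (0.67), both in Kyse30.

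In FaDu no member was called by edgeR in any of the 7 comparisons tested, each with 2 libraries per group. With EGFlow against untreated cells at 6 h HLA-C held 247 and 392 CPM against 210 and 240 CPM (0.51 ± 0.23, adjusted p = 0.289), and with EGFhigh 251 and 364 CPM (0.46 ± 0.23, adjusted p = 0.367), in both cases without overlap. Both comparisons used the same 2 untreated libraries, and the share of all genes without overlap was not computed. HFE held 2.29 and 1.55 CPM with EGFlow and 1.63 and 1.45 CPM with EGFhigh, below 2.61 and 3 CPM in untreated cells (-0.54 ± 0.51 and -0.85 ± 0.52). The shares of all genes called were 3.45% for EGFlow and 3.06% for EGFhigh, with 1 and 0 members at an unadjusted p under 0.05 beside 15% and 14.1% of all genes.

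Of all genes, 3.5% were called for EpEX against Fc at 6 h, 0.818% for EGFhigh+EpEX against Fc at 72 h, 0% for EGFhigh against EGFlow at 6 h, and 0% for Fc against untreated cells at 6 h. At an unadjusted p under 0.05 stood 0 members (13.9% of all genes), 1 (6.78%), 0 (2.45%) and 0 (1.72%) in this order. DESeq2 called no member in these 6 comparisons either.

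From 6 to 72 h with Fc, PSMB9 held 1.28 and 2.89 CPM and then 11.0 and 7.57 CPM in FaDu (2.16 ± 0.61, adjusted p = 0.0674 with edgeR, and called by DESeq2). HFE went from 3.32 and 2.38 to 6.83 and 6.92 CPM (1.30 ± 0.48, adjusted p = 0.19) and TAPBP from 59.3 and 82.0 to 101 and 119 CPM (0.67 ± 0.25, adjusted p = 0.197). HLA-B held 22.2 and 43.6 CPM at 6 h and 21.9 and 20 CPM at 72 h (-0.63 ± 0.58), and HLA-C 236 and 253 CPM at 6 h and 152 and 152 CPM at 72 h (-0.66 ± 0.23, adjusted p = 0.147). In this comparison 2.88% of all genes were called by edgeR, and 4 members had an unadjusted p under 0.05, as did 15% of all genes.

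Whether the change with Fc differed between the lines was tested as an interaction. The change of HLA-B was larger in Kyse30 by 2.32 ± 0.69 (adjusted p = 0.156), that of HLA-C by 1.64 ± 0.52 (adjusted p = 0.201), that of B2M by 1.14 ± 0.45 (adjusted p = 0.415), and that of HLA-E by 0.94 ± 0.30 (adjusted p = 0.212). None was called by edgeR or DESeq2, against 0.392% of all genes called by edgeR, and 4 had an unadjusted p under 0.05, against 8.36%. In 10 fits of the groups of the line comparisons, each without 1 library, 0 to 2 members were called. The only such fit with any member called left out Fc replicate 3 of Kyse30 at 72 h. It called HLA-B (2.67, adjusted p = 0.0292) and HLA-C (1.99, adjusted p = 0.0155). Its share of all genes called is not given here. The response to EGFhigh at 6 h gave 0 members called, against 0.0611% of all genes, and 0 at an unadjusted p under 0.05, against 4.91%.

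Levels in the untreated state at 6 h differed between the lines for 6 of 9 members, 3 in each direction. HLA-B held 144, 66.2 and 68.9 CPM in Kyse30 and 19.6 and 36.0 CPM in FaDu (1.74 ± 0.51, adjusted p = 0.00896), and HLA-E 154, 150 and 184 CPM and 48.8 and 83.3 CPM (1.30 ± 0.22, adjusted p = 7.19e-06). TAPBP was also higher in Kyse30 (0.79 ± 0.25, adjusted p = 0.0131). HLA-C held 210 and 240 CPM in FaDu (-1.50 ± 0.36, adjusted p = 0.00132), B2M 477 and 665 CPM (-1.07 ± 0.31, adjusted p = 0.00819), and PSMB8 8.67 and 9.85 CPM against 0.516, 1.32 and 0.422 CPM in Kyse30 (-3.56 ± 1.06, adjusted p = 0.00973, with 3, 11 and 3 counts in Kyse30). None of these 6 called members overlapped between the lines. They had been picked as called, so this adds no separate evidence, and the share of all genes without overlap was not computed.

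The counts stood against 12% of all 19634 genes called higher and 10.4% called lower in Kyse30. In fits of the groups of the line comparisons that left out 1 library each, HLA-C, HLA-E and PSMB8 were called in all 5. HLA-B lost its call without FaDu replicate 3 (1.42, adjusted p = 0.14) or Kyse30 replicate 1 (1.31, adjusted p = 0.0573), and TAPBP without FaDu replicate 3 (0.75, adjusted p = 0.0849). B2M lost it without FaDu replicate 4 (-0.76, adjusted p = 0.174), Kyse30 replicate 3 (-0.87, adjusted p = 0.0677) or Kyse30 replicate 4 (-0.95, adjusted p = 0.0524).

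At 72 h with Fc 2 members were called, HLA-B with 399, 405 and 125 CPM in Kyse30 and 21.9 and 20 CPM in FaDu (3.89 ± 0.57, adjusted p = 3.48e-07), and HLA-E with 245, 259 and 369 CPM against 56.6 and 67.0 CPM (2.23 ± 0.23, adjusted p = 4.29e-11). Of all genes, 11.7% were called higher in Kyse30. HLA-C and B2M, lower in Kyse30 at 6 h, had log2FC values of 0.06 ± 0.37 and -0.01 ± 0.32 there. Reads with more than 1 best place made up 24.6 to 43.6% of reads in Kyse30 and 41.0 to 51.3% in FaDu and were not counted on genes. The class I alleles of both lines and how well their reads align were not analysed here, so a difference in RNA and one in alignment cannot be told apart for HLA-B, HLA-C and HLA-E between lines.

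**Figure D4:**
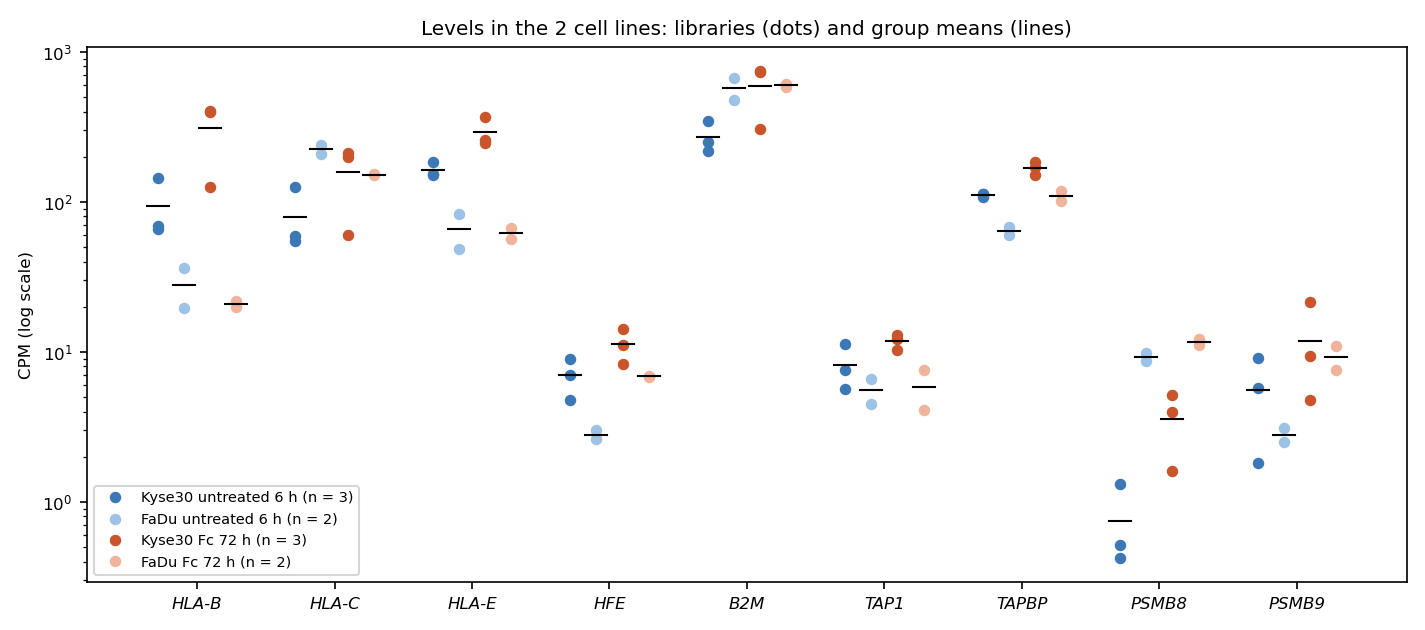
Levels of the 9 genes on a log axis in CPM for untreated cells at 6 h and Fc-treated cells at 72 h in Kyse30 (3 libraries each) and FaDu (2 libraries each), with 1 dot per library and lines at the means. HLA-B of Kyse30 lay above that of FaDu at both times, and at 6 h PSMB8 lay at 0.422 to 1.32 CPM in Kyse30 and at 8.67 to 9.85 CPM in FaDu.

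Other genes of the pathway came from 6 lists: class I and peptide loading (10 genes), proteasome subunits and activators (7), regulators of transcription and interferon signalling (24), class II (9), killer cell ligands with checkpoint ligands (7), and iron genes linked to HFE (6). Of these 63 genes, 53 passed the filter in Kyse30. In untreated Kyse30 cells from 6 to 72 h, 2 of the 53 rose and 2 fell, beside 0.775% of all genes in each direction. Among them PSME1, a subunit of the proteasome activator PA28, rose by 0.74 ± 0.19 (adjusted p = 0.0292). PSMB7 and PSMB6, constitutive catalytic subunits, fell by 0.98 ± 0.26 (adjusted p = 0.0359) and by 0.72 ± 0.19 (adjusted p = 0.0415). With Fc 3 rose and 1 fell, beside 1.24% and 1.01% of all genes, among them STAT2 (1.15 ± 0.32, adjusted p = 0.0423), which carries interferon signals to the nucleus, and PSMB6 (-0.81 ± 0.19, adjusted p = 0.0177).

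With EGFhigh 4 of the 53 rose and 2 fell from 6 to 72 h (6.08% and 6.25% of all genes), with EGFlow 7 and 6 (7.43% and 7.33%), with EpEX 5 and 2 (2.84% and 2.81%), and with EGFhigh+EpEX 7 and 6 (6.12% and 7.3%). HLA-F, a nonclassical heavy chain, rose by 2.81 ± 0.84 with EGFlow and by 3.30 ± 0.87 with EGFhigh+EpEX from means of about 1 CPM or less. CD274, which encodes the checkpoint ligand PD-L1, fell by 2.77 ± 0.85 with EGFlow (means 8.29 and 1.24 CPM) and by 3.20 ± 0.97 with EGFhigh+EpEX (means 11.1 and 1.16 CPM). The groups with EGFhigh+EpEX overlapped. In untreated cells at 6 h the mean of CD274 was 1.91 CPM. PVR, a ligand of natural killer cell receptors, fell by 1.42 ± 0.36 with EGFlow and 1.31 ± 0.39 with EGFhigh. At 6 h PVR was called higher with EGFhigh+EpEX (mean 87.4 CPM) than with Fc (mean 30.5 CPM). Neither CD274 nor PVR was called over time in untreated, Fc-treated or EpEX-treated cells, so these falls were called only in cells given EGF. IRF1, a transcription factor of the interferon response, rose by 2.28 ± 0.50 with EpEX (means 17.8 and 86.1 CPM).

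At 6 h RELB, a subunit of the noncanonical NF-κB pathway, rose with EGFlow (1.65 ± 0.32, adjusted p = 0.00532), EGFhigh (1.73 ± 0.32, adjusted p = 0.00188) and EGFhigh+EpEX (2.28 ± 0.33, adjusted p = 9.8e-05) in Kyse30, as it did in FaDu with EGFlow (3.42 ± 0.41), EGFhigh (3.04 ± 0.41) and EpEX (2.21 ± 0.38). IFNGR2, a chain of the interferon gamma receptor, rose with EGFhigh in Kyse30 (1.07 ± 0.30) and in FaDu (1.59 ± 0.27). At 72 h with EGFhigh against untreated cells, 3 of the 53 listed genes tested rose and 1 fell in Kyse30, beside 3.04% and 3.16% of all genes. NFKB2 rose by 1.56 ± 0.44, and ERAP1, which trims peptides to the length class I accepts, fell by 1.48 ± 0.39 (means 27.2 and 9.96 CPM). No class II gene was called in any comparison within a line.

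Over the 13 condition means of Kyse30, log2 levels of HLA-B and HLA-C had a Pearson r of 0.989, HLA-B and B2M 0.987, HLA-B and HLA-E 0.958, and HLA-B and TAPBP 0.95. HFE stood apart, with r from 0.123 (TAP1) to 0.612 (PSMB9) to the other members. Among 10218 genes of at least 5 CPM on average outside the members, SEZ6L2 was nearest to HLA-E (r 0.98), MEIS1 to HFE (0.974), ZBTB4 to B2M (0.981), ASS1 to TAPBP (0.968), PLXNA1 to PSMB8 (0.93), and C19orf66 to PSMB9 (0.965). The 3 genes nearest to TAP1 were IRF1 (0.93), PARP9 (0.908) and PARP14 (0.897). These values describe 13 means that share depth scaling and a split in time, and carry no test.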

How the data were processed

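RNA of Kyse30 and FaDu cells was sequenced from transcript 3′ ends (QuantSeq 3′ FWD). The authors deposited whole-number read counts per Ensembl gene and library, not normalized and not pooled. The submitters' processing notes name STAR, HTSeq and GRCh38 (hg38), while the annotation release and strand setting are not given in the sources used here. The files' tallies of unassigned reads entered neither depths nor tests.

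Counts were tested with edgeR 4.0.16 (R 4.3.3) by the quasi-likelihood F test with TMM normalization, filterByExpr (minimum count 10, total 15) and Benjamini-Hochberg adjustment, in 3 fits: Kyse30 (15350 genes), FaDu replicates 3 and 4 (16022), and both lines (19634). SEs were taken from log2FC and F. Alternatives were DESeq2 1.42.0, which the study used, RLE size factors, no filter, a minimum mean of 5 CPM, fits of the compared groups alone, a replicate block, pooled controls, all FaDu libraries, and libraries left out in turn. The test was tried on simulated counts for EGFhigh at 6 h. Changes were planted only in genes with a mean of at least 5 CPM. The rates found do not cover genes under that level, such as PSMB8 in Kyse30 (median 1.53 CPM). In Kyse30 (14869 genes) it found 87% of planted changes with log2FC 2 and 42% with log2FC 1, with 7 false calls. In FaDu (15071 genes) it found 90% and 35%, with 9 false calls. Between the untreated lines at 6 h (17762 genes) it found 76% and 21%, with 2 false calls.

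Named genes were the members, from 6 lists at most 4 called genes per comparison with the largest absolute log2FC, and the nearest genes to each member. Members and lists were chosen with earlier results of these data known. Replicate numbers, taken from the labels, were not treated as pairs, since across all genes deviations of same-numbered libraries correlated by only 0.0619 on average in Kyse30 and 0.0751 in FaDu, although levels of some members split by number. Libraries of a condition differed by more than counting error (chi-square per degree of freedom at least 8.98). Some genes of the lists and some nearest genes are not reported here.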

Additional observations from a re-analysis of the deposited data

Results flagged for a closer look

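Among the 36 groups of 4 Kyse30 libraries (4 conditions and 9 genes), 1 library lay far from the others by Dixon's criterion, which flags about 1 group in 20 by chance. It was TAPBP in replicate 1 of EGFlow at 72 h with 314 CPM, while the other 3 libraries held 173 to 197 CPM. The gap to the nearest made up 0.831 of the whole range of the group.

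HLA-E moved in opposite directions with EpEX against Fc at 6 h in both lines, without overlap of the groups in either, although the nearest Kyse30 libraries both held 117 CPM. The log2FC was -0.37 in Kyse30 (117, 109 and 104 CPM with EpEX, 117, 152 and 159 CPM with Fc) and 0.41 in FaDu (66.6 and 85.5 CPM with EpEX, 58.1 and 58.2 CPM with Fc). Neither value was called, and the difference between the lines was not tested.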

How the results depend on the processing

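No called value of a member changed its sign under any alternative. The alternative with all FaDu libraries could not show this, since none of its 63 values was called in the main fit. With it no call was gained, and 25 of the 63 values changed sign. Of 41 calls, 41 were kept with DESeq2 and with RLE size factors, 40 of 40 with a mean of at least 5 CPM, 34 with no filter on low counts, and 32 with only the groups compared. Calls gained were 5 with DESeq2 (HFE for EGFhigh+EpEX at 6 h, TAP1 over time with EpEX, PSMB9 over time in FaDu, and between lines HFE at 6 h and TAPBP at 72 h), 1 with RLE (TAPBP between lines at 72 h), 3 with the minimum mean, 10 with no filter (among them PSMB9 over time with EGFlow, EpEX and EGFhigh+EpEX, and HLA-C with Fc), and 1 with only the groups compared (TAP1 with EpEX). For EGFhigh against untreated Kyse30 cells the count of called members went from 1 to 0 at 6 h and from 1 to 0 at 72 h with no filter, and likewise with only the groups compared, while untreated and Fc together as control gave 2 at 72 h. For EGFhigh+EpEX at 6 h the count was 0, and 1 with DESeq2 or with both controls together. From 6 to 72 h, untreated Kyse30 cells had 3 called members in place of 5 with no filter, and Fc-treated cells 0 in place of 4 with only the groups compared. In FaDu, EGFlow at 6 h gave 1 with no filter, and Fc from 6 to 72 h gave 1 with DESeq2 and 2 with no filter. For the change with Fc between the lines, no filter gave 2. The cause was not tested. With a replicate block, run although same-numbered libraries were not taken as paired (correlations from -0.13 to 0.28 in Kyse30), 40 calls were kept, TAPBP between untreated lines was lost (0.64, adjusted p = 0.0614) and 8 were gained, so that counts were 2 for EGFhigh at 72 h in Kyse30, 2 for Fc over time in FaDu and 1 for the change with Fc between the lines. The other 4 gained were TAP1 over time with EGFlow and EpEX, PSMB9 over time with EGFhigh+EpEX, and PSMB8 between lines at 72 h. Leaving out 1 library at a time gave 0 to 3 called members over time in untreated Kyse30 cells, 1 to 4 with Fc, 0 to 1 for EGFhigh at 6 h and 0 to 1 at 72 h, 0 to 2 for EGFhigh+EpEX at 6 h, and 0 to 2 for the change with Fc between the lines. The last, and all line comparisons, were refitted on the groups of the line comparisons, an alternative chosen after seeing the data, and leaving out libraries in the fit of all groups of both lines was not run. PSMB8 and HFE rest on few counts per library, which limits their precision. The shares of all genes called under these alternatives are not given here. The counts of called members under them show how the calls depend on the setting and cannot be set against a background.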
